A study of Homo sapiens with 4 samples.

Results

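The LDL receptor family and the sortilin family are cell-surface and sorting receptors, and 10 of their genes were followed here among the 62649 genes counted: SORL1, SORT1, LRP1, LRP8, LRP5, LRP6, LRP3, LRP10, LRP12 and LRP11. They were chosen by symbol as relatives of SORL1 and LRP3, and those were picked because their CPM (counts scaled to a fixed library total) were higher in the resistant than in the control libraries of this same comparison. For SORL1 and LRP3 that difference is therefore a description and no p-value is printed for it. Where the 2 genes are counted below as passing a threshold, that is no support for the difference. Resistant A375 cells (2 libraries) had been selected by doubling the vemurafenib concentration each week, starting at 0.1 µM and ending at 6.4 µM, and parental A375 cells (2 libraries) were the control. Vemurafenib inhibits the mutant BRAF kinase. A375 is a human melanoma line with an activating BRAF mutation. RNA was selected by polyA tail and sequenced as paired ends. The labels do not say whether the resistant cells are a clone or a pool, whether vemurafenib was present at harvest, or whether the replicates were separate cultures, so any p-value is set against a spread that may be only technical. Treatments with sorafenib and pioglitazone are described for the series, but the titles of these 4 libraries name neither drug. The files of the resistant libraries carry other sample numbers than the libraries' descriptions, so the tie of these counts to resistant cells rests on the deposit's own record of which file belongs to which library.

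Receptors of the LDL receptor family cross the membrane a single time and bind lipoproteins, proteases and other secreted proteins through small cysteine-rich repeats, then carry them to endosomes. LRP5 and LRP6 instead pair with Frizzled proteins as coreceptors for Wnt ligands. Sortilin-type receptors share a VPS10P domain and move cargo between the Golgi apparatus, the cell surface and endosomes. SORL1 has both a VPS10P domain and LDL receptor type repeats, so it belongs to both families.

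Counts assigned to genes totalled between 68022689 and 87178097 per library. Control replicate 1 held 0 odd values, and halving its counts was tried as an alternative. Of 10 melanoma and neural crest markers, 2 (TYR and DCT) stayed under 1 CPM in all 4 libraries. PMEL, MLANA and S100A1 were little above that, at no more than 2.34 CPM in any library. MITF had 12.3 and 23.4 CPM in resistant and 42.2 and 22.8 CPM in control libraries. The lineage factor SOX10 had 969 and 864 CPM in resistant and 704 and 1149 CPM in control libraries. Immune markers summed to between 0.335 and 1.60 CPM, endothelial markers to between 2.30 and 3.47 CPM and fibroblast markers to between 8.54 and 12.3 CPM. Keratinocyte markers summed to 58.5 and 89.5 CPM in resistant and 49.2 and 62.6 CPM in control libraries, nearly all of it KRT10. Their part in the results was not tested.

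The sequence 5′ of SORL1 and of LRP3 is shown because these were the members picked for their higher level in resistant cells. Each run is the 250 bases before the RefSeq start site (GRCh38.p14, plus strand), with GC boxes (GGGCGG, either strand) and E-boxes (CACGTG) in capitals. The SORL1 sequence lies at chr11:121452064-121452313 and the LRP3 sequence at chr19:33194080-33194329.

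SORL1: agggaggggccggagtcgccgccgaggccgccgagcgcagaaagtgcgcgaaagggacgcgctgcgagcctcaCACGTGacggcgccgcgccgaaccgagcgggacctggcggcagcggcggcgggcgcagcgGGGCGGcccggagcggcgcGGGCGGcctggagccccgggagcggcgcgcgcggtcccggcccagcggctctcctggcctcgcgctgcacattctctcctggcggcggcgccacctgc

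LRP3: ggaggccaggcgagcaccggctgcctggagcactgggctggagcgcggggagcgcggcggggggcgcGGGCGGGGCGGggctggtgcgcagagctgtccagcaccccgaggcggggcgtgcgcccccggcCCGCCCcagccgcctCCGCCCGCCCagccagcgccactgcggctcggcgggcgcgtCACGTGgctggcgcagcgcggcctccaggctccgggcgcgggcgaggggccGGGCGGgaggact

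Both windows were rich in G and C (80.4% for SORL1 and 83.6% for LRP3) and each held 1 E-box, beginning 177 bases before the SORL1 start and 64 bases before the LRP3 start. An E-box was present in 6.34% of the 35116 promoter windows of this length, and in none of the windows of the other 6 members that the table holds (SORT1, LRP1, LRP8, LRP5, LRP10 and LRP11). GC boxes numbered 2 in the SORL1 window and 6 in the LRP3 window, some of them overlapping, and 42.6% of all windows held at least 1. An AP-1 site (TGANTCA) was found in neither window on either strand, against 6.57% of all windows. Neither window had a TATA box (TATAAA), which 10.7% of all windows had. A CCAAT box, present in 32.0% of all windows, was also in neither. The nuclear receptor half-site AGGTCA was in neither, against 12.1% of all windows. These motifs were chosen after the sequences had been seen, and a match is a description of letters, not a binding site. The RefSeq start of SORL1 is also the gene's first base in the count annotation, whereas that of LRP3 lies 16.7 kb inside it.

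SORL1, the sorting receptor of both families, was barely detected in control cells and higher in resistant cells. Its counts were 604 and 784 in the resistant libraries, against 28 and 55 in the controls. This came to 8.50 and 9.48 CPM in resistant cells and 0.391 and 0.635 CPM in control cells. The lowest resistant value lay far above the highest control value, and SORL1 averaged 8.99 ± 0.697 CPM in resistant cells and 0.513 ± 0.172 CPM in control cells (SD, n = 2 each). The fitted log2 fold change was 4.12 ± 0.34 (SE), or 17.4-fold. The gene lies on chromosome 11 (ENSG00000137642.13, GRCh38, 121452314 to 121633763), and 0.0% of its exonic bases were shared with another gene, on either strand. In bulk libraries like these, a larger share of cells with the transcript and more transcript per cell cannot be told apart.

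SORT1 encodes sortilin, which carries cargo such as progranulin and neurotrophin precursors. Its values pointed the other way from SORL1, with 37.7 and 46.3 CPM in resistant cells, against 94.5 and 58.7 CPM in control cells. The groups did not overlap, but the controls differed from each other by more than the distance between the nearest resistant and control libraries. The log2 fold change was -0.87 ± 0.25 (SE), which did not pass over all 24961 genes tested (adjusted p = 0.164 by Benjamini-Hochberg in edgeR's quasi-likelihood test). DESeq2 gave an adjusted p = 0.0368. Without control replicate 2 the edgeR value was -1.18 (adjusted p = 0.00484), and without control replicate 1 it was -0.48 (adjusted p = 0.513).

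Set side by side per exon length, sortilin remained the more abundant of the pair. In RPKM (CPM per kilobase of exon), SORT1 had 4.14 and 5.08 in resistant cells and 10.4 and 6.43 in control cells. SORL1 had 0.438 and 0.489 RPKM in resistant cells and 0.0202 and 0.0327 RPKM in control cells. SORT1 was thus 9.45 and 10.4 times the level of SORL1 in the resistant libraries, against 514 and 197 times in the controls. SORL1 made up 9.57% and 8.78% of the summed RPKM of the pair in resistant libraries, and 0.194% and 0.506% in control libraries. The sum of both was 4.57 and 5.57 RPKM in resistant cells, below the 10.4 and 6.47 RPKM of control cells.

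**Figure D1:**
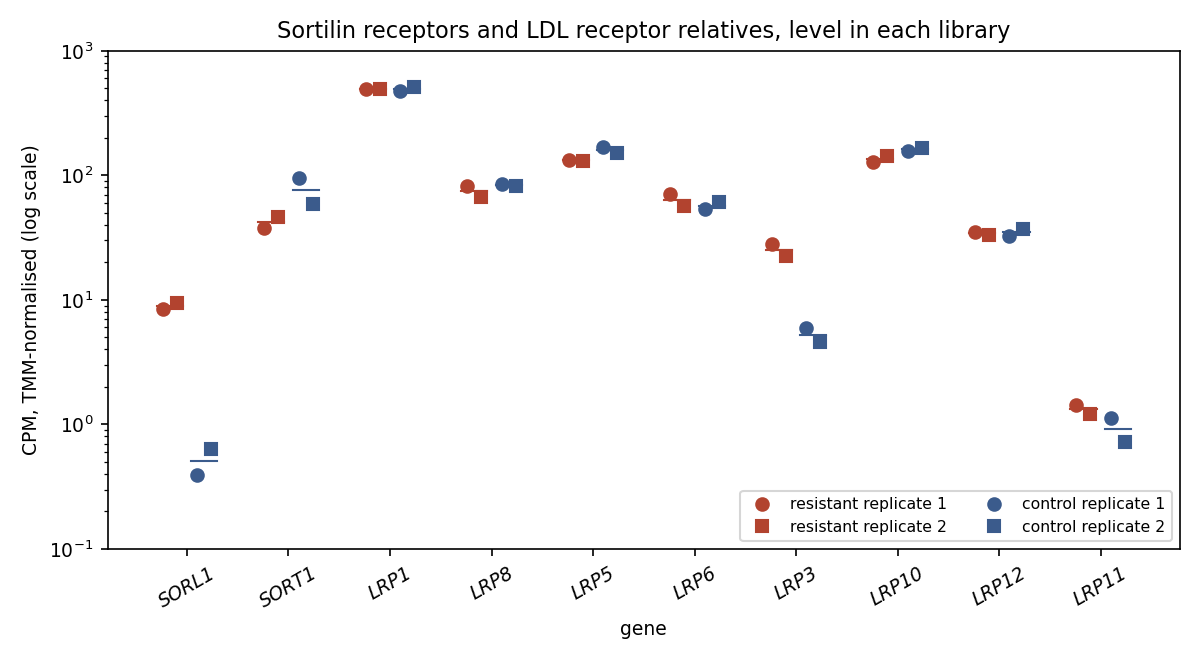
CPM of each member in the 2 resistant (red) and 2 control (blue) libraries on a log scale, with short lines at the group means. SORL1 (8.50 and 9.48 against 0.391 and 0.635 CPM) and LRP3 (28.3 and 22.3 against 5.92 and 4.58 CPM) stand apart between groups, while LRP1 lies near 490 CPM in both.

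LRP3, LRP10 and LRP12 form a branch of the family that has CUB domains beside the LDL receptor type repeats, and LRP10 moves between the trans-Golgi network and endosomes. LRP3 was the other gene picked for its higher level in resistant cells, with 2014 and 1840 counts in resistant libraries and 424 and 397 counts in control libraries. Its level was 28.3 and 22.3 CPM in resistant cells, against 5.92 and 4.58 CPM in control cells, and the groups were far apart. LRP3 averaged 25.3 ± 4.30 CPM in resistant and 5.25 ± 0.948 CPM in control cells (SD, n = 2 each), a fitted log2 fold change of 2.27 ± 0.24 (SE) or 4.82-fold. The gene lies on chromosome 19 (ENSG00000130881.14, 33177603 to 33208864). Of its exonic bases 9.6% overlapped an unnamed gene on the same strand and 3.8% overlapped the amino acid transporter gene SLC7A10 on the opposite strand.

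The other members of that branch stayed near their control level. LRP10 had 128 and 143 CPM in resistant cells and 157 and 167 CPM in control cells, groups that did not overlap. Its log2 fold change was -0.26 ± 0.16 (SE, edgeR adjusted p = 0.576). LRP12 had 35.3 and 33.4 CPM in resistant cells and 32.8 and 37.1 CPM in control cells, so the control libraries enclosed the resistant ones (log2 -0.02 ± 0.17, edgeR adjusted p = 0.975). LRP3 accounted for 19.7% and 15.1% of the summed RPKM of the 3 genes in resistant libraries, against 4.20% and 3.06% in control libraries. Its RPKM of 5.30 and 4.16 in resistant cells was above the 3.53 and 3.34 RPKM of LRP12, whereas in control cells LRP3 (1.11 and 0.857) was below LRP12 (3.27 and 3.70).

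LRP1, the large endocytic receptor for protease and inhibitor complexes, was the most abundant member by CPM and lay at nearly the same level in both groups. It had 495 and 492 CPM in resistant cells, against 474 and 507 CPM in control cells. Both resistant values fell between the control values, and the log2 fold change was 0.01 ± 0.17 (SE, edgeR adjusted p = 0.992). LRP8, a receptor for reelin and apolipoprotein E, had 81.6 and 67.2 CPM in resistant cells and 85.1 and 82.7 CPM in control cells (log2 -0.17 ± 0.17, edgeR adjusted p = 0.746). The gap between its nearest libraries was smaller than the gap between the resistant replicates. Of the exonic bases of LRP8, 9.7% overlapped genes on the opposite strand, and reads were counted without strand.

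The Wnt coreceptors did not differ between groups past the test. LRP5 had 133 and 131 CPM in resistant cells, against 170 and 151 CPM in control cells, with no overlap (log2 -0.28 ± 0.16 SE, edgeR adjusted p = 0.534). LRP6 had 70.4 and 56.6 CPM in resistant cells and 53.8 and 60.5 CPM in control cells, with overlap (log2 0.15 ± 0.18, edgeR adjusted p = 0.800). Per exon length LRP5 was the more abundant of the pair in each library, at 3.17 and 3.89 times the RPKM of LRP6 in resistant cells and 5.29 and 4.19 times in control cells. These ratios did not overlap between groups, with a gap narrower than the spread within either group, and were not tested.

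LRP11 was barely expressed, with 101 and 100 counts in resistant libraries and 80 and 63 counts in control libraries. This was 1.42 and 1.21 CPM in resistant cells and 1.12 and 0.727 CPM in control cells (log2 0.51 ± 0.38 SE, edgeR adjusted p = 0.642). Of its exonic bases, 44.5% overlapped genes on the same strand and 17.0% genes on the opposite strand, and reads shared between genes were left out by the counting program's defaults, so its level is uncertain.

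All 10 members passed the filter on low counts. Among all tested genes, 0.577% were called higher and 0.513% lower at an adjusted p under 0.05, and among the members 2 were called higher, SORL1 and LRP3, which were picked for that difference. Neither passed without resistant replicate 1, a fit in which nearly no gene of the whole table passed. None of the 10 was called lower in edgeR, 3 members had an unadjusted p under 0.05 (SORT1 beside those 2), and DESeq2 called 2 higher and 1, SORT1, lower, as edgeR did without control replicate 2. Over all tested genes 13.5% had an unadjusted p under 0.05. DESeq2 called 3.04% higher and 3.42% lower of the 20605 genes to which it gave an adjusted p, and edgeR without control replicate 2 called 4.36% higher and 3.96% lower. Both resistant libraries lay above both controls in 3 members, where 22.4% of all tested genes did so, and below both in 4, where 22.2% did so. The 8 members other than SORL1 and LRP3 had log2 fold changes from -0.87 to 0.51 and a median of -0.10, against a median of 0.01 over all tested genes. A p that misses the threshold does not show that these genes were equal.

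**Figure D2:**
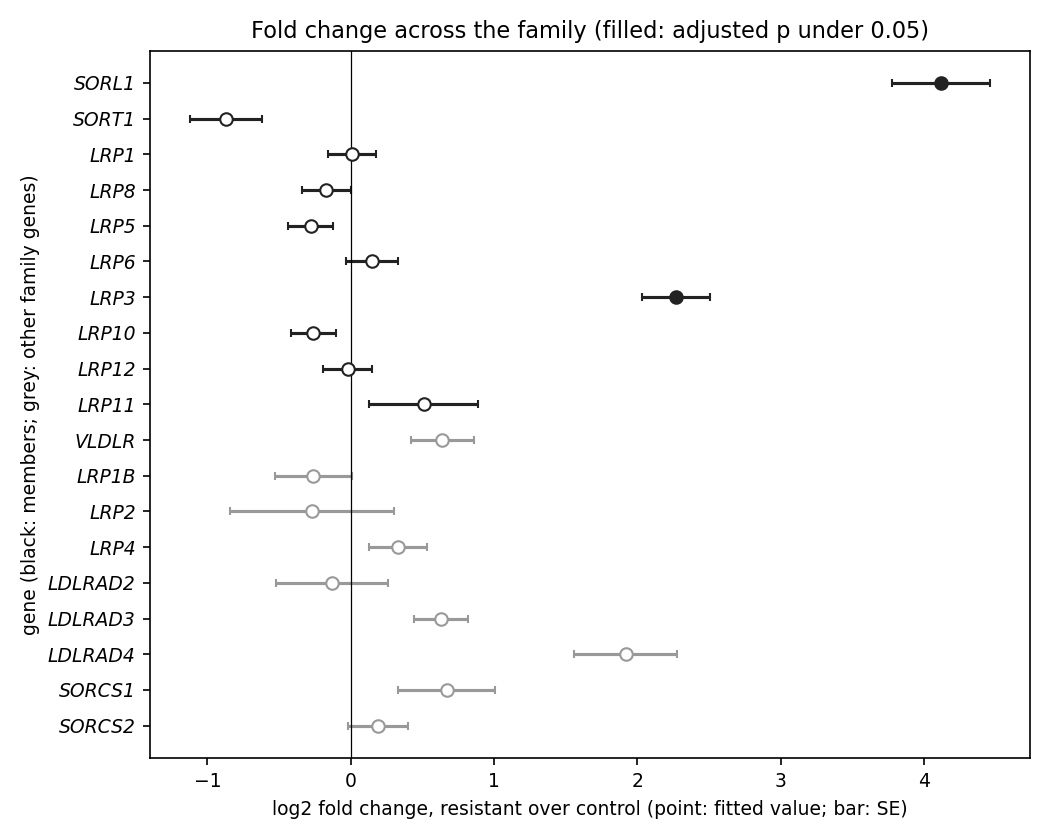
Fitted log2 fold change, resistant over control, with its SE for the 10 members (black) and 9 other family genes (grey), filled where the adjusted p over all genes is under 0.05. SORL1 (4.12) and LRP3 (2.27) are the filled points, and they were chosen for this difference. The other members lie between -0.87 and 0.51.

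The order of the members by RPKM was partly rearranged. In resistant cells the order was LRP1 (mean 23.6 RPKM), LRP5 (21.4), LRP10 (19.0), LRP6 (6.12), LRP3 (4.73), SORT1 (4.61), LRP8 (3.78), LRP12 (3.43), SORL1 (0.463) and LRP11 (0.218). The ranges of LRP3 and SORT1, of SORT1 and LRP8, and of LRP8 and LRP12 overlapped there. In control cells the order was LRP5 (25.9), LRP1 (23.5), LRP10 (22.7), SORT1 (8.40), LRP6 (5.51), LRP8 (4.26), LRP12 (3.49), LRP3 (0.983), LRP11 (0.153) and SORL1 (0.0264), and the ranges of LRP1 and LRP10 overlapped. SORL1 was last in control cells and stood above LRP11 in resistant cells. The place of LRP11 is uncertain, because its RPKM uses the full exon length. Of its exonic bases 44.5% overlapped genes on the same strand and 17.0% genes on the opposite strand, and shared reads were left out. Summed over the 10 genes, the level was 87.8 and 87.0 RPKM in resistant libraries and 96.6 and 93.3 RPKM in control libraries, of which SORL1 gave 0.499% and 0.562% in resistant and 0.0209% and 0.0351% in control libraries.

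The widest differences between replicates were in the controls. The log2 ratio of replicate 2 to replicate 1 ranged from -0.35 (LRP3) to 0.30 (SORT1) in resistant cells. In control cells it ranged from -0.69 (SORT1) to 0.70 (SORL1), with LRP11 at -0.62. The SD of this ratio was 0.311 in resistant and 0.409 in control cells over 10089 genes averaging 10 CPM or more. SORL1 kept a log2 fold change between 3.82 and 4.51 whichever library was removed, and LRP3 one between 2.08 and 2.46.

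**Figure D3:**
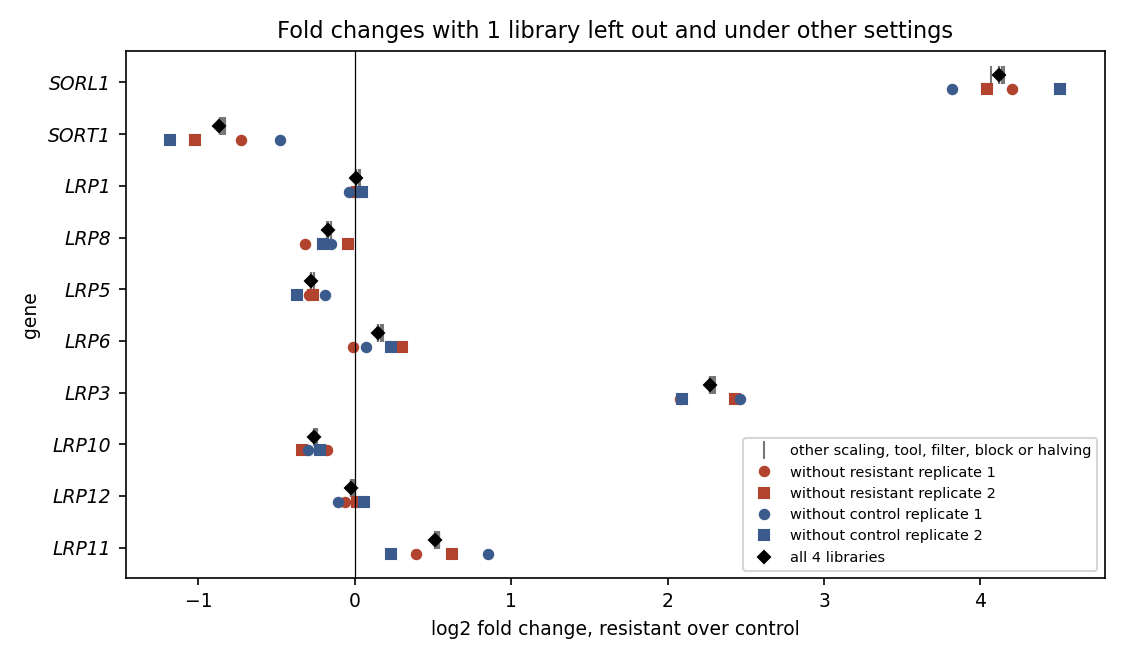
Log2 fold change, resistant over control, of each member with all 4 libraries (black diamonds), with 1 library left out (coloured points, by the library removed) and under other settings (grey ticks). SORL1 lies between 3.82 and 4.51 and LRP3 between 2.08 and 2.46, but both were picked on these same libraries. SORT1 ranges from -1.18 to -0.48 depending on which control is left out.

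Genes next to SORL1 and LRP3 on the chromosome were not called. Around SORL1, 4 genes of at least 1 CPM had their lowest coordinate, whatever their strand, within 500 kb of the gene. Their log2 fold changes ran from -0.04 to 0.56. The nearest were SC5D, a sterol desaturase gene with 33.4 and 33.9 CPM in resistant and 27.1 and 22.9 CPM in control cells (log2 0.43 ± 0.18, edgeR adjusted p = 0.354), and the noncoding RNA gene MIR100HG (log2 -0.04 ± 0.19, edgeR adjusted p = 0.962). Around LRP3, 11 such genes had a median of 0.01 and ranged from -0.55 to 1.24. The highest was CEBPA, a transcription factor gene whose lowest coordinate lies 122 kb after that of LRP3. It had 5.71 and 7.40 CPM in resistant and 3.07 and 2.47 CPM in control cells (log2 1.24 ± 0.28, edgeR adjusted p = 0.0942). The gene nearest before LRP3 has an identifier only (ENSG00000289378, log2 0.18 ± 0.35, edgeR adjusted p = 0.898). None of the neighbours passed in edgeR with all libraries. An unadjusted p under 0.05 was found for 1 of 4 near SORL1 (SC5D) and 1 of 11 near LRP3 (CEBPA), where 13.5% of all tested genes had one. DESeq2 called 0 near SORL1 and 1 higher, CEBPA, near LRP3, against 3.04% higher and 3.42% lower of all genes. Near LRP3, CEBPG and RHPN2 passed only without control replicate 2, a fit with 1 control library that called many more genes over the whole table.

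**Figure D4:**
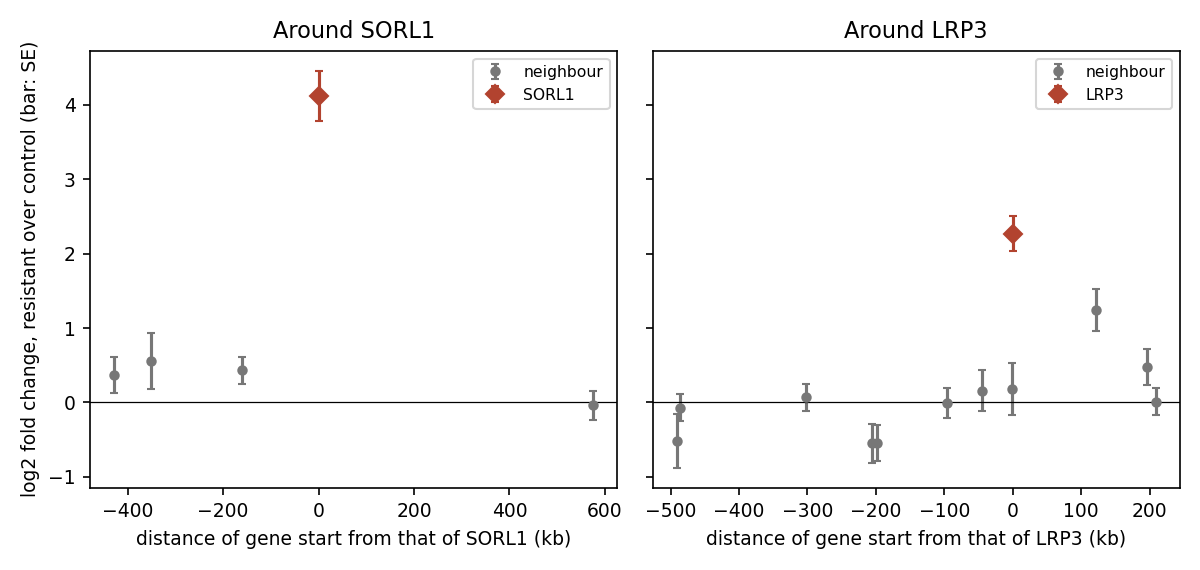
Log2 fold change, resistant over control, with SE for genes whose lowest coordinate lies within 500 kb of SORL1 (left) or LRP3 (right). The horizontal axis is the distance between lowest coordinates in kb, labelled as gene starts whatever the strand. The neighbours lie between -0.55 and 1.24, below SORL1 at 4.12 and LRP3 at 2.27.

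The genes whose 4 library values were most like those of SORL1 were PCSK1 (distance 0.44), PTPRN (0.83) and TP53I11 (1.08), by Euclidean distance between log2 CPM values centred on each gene's mean, among 11436 genes averaging 5 CPM or more. PCSK1 encodes a prohormone convertase and had 20.8 and 15.1 CPM in resistant cells, against 0.922 and 1.34 CPM in control cells. PTPRN, a gene of dense-core vesicles, had 25.3 and 20.5 CPM in resistant cells, against 1.40 and 3.45 CPM in control cells. Those most like LRP3 were SHANK3 (0.27), CCL2 (0.27) and NXN (0.32). SHANK3, which encodes a synaptic scaffold, had 19.3 and 13.6 CPM in resistant cells, against 4.22 and 3.63 CPM in control cells, and the chemokine gene CCL2 had 10.6 and 7.52 CPM in resistant and 2.35 and 1.39 CPM in control cells. Likeness over 4 libraries is a description and carries no p.

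Other genes of both families were compared with the members. Of 11 listed, 9 were tested, with 0 called higher or lower in edgeR, and 3 had an unadjusted p under 0.05, where 13.5% of all tested genes did (list median 0.33, against 0.01 over all genes). DESeq2 called 1 higher (LDLRAD4) and 0 lower, against 3.04% and 3.42% of all genes. Without control replicate 2 edgeR called 2 higher (LDLRAD3 and LDLRAD4), against 4.36% of all genes, and 0 lower. VLDLR, which binds reelin and triglyceride-rich lipoproteins, had 22.9 and 17.8 CPM in resistant and 11.8 and 14.3 CPM in control cells (log2 0.64 ± 0.22, edgeR adjusted p = 0.250). LRP4, an agrin receptor of the neuromuscular junction, had 28.8 and 22.4 CPM in resistant and 21.1 and 19.7 CPM in control cells (log2 0.33 ± 0.20, edgeR adjusted p = 0.555). The VPS10P relatives SORCS1 (log2 0.67 ± 0.34, edgeR adjusted p = 0.452) and SORCS2 (0.19 ± 0.21, 0.778) did not pass, and SORCS3 had at most 10 counts in any library.

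Ligands and cargo of the receptors showed no calls among 22 genes tested in edgeR, and 7 had an unadjusted p under 0.05, where 13.5% of all tested genes did (median -0.04). DESeq2 called 2 higher (A2M and LPL) and 1 lower (PLAU), against 3.04% and 3.42% of all genes. Without control replicate 2 the edgeR log2 fold change of A2M was 1.94. BDNF, whose precursor sortilin binds, had 16.8 and 35.1 CPM in resistant cells, against 4.19 and 11.1 CPM in control cells (log2 1.76 ± 0.49, edgeR adjusted p = 0.156, and log2 1.13 to 2.62 with 1 library left out). The protease inhibitor gene A2M, a ligand of LRP1, had 13.1 and 21.2 CPM in resistant and 4.44 and 7.29 CPM in control cells (log2 1.54 ± 0.33, edgeR adjusted p = 0.0807). APP, a cargo of SORL1, had 483 and 551 CPM in resistant and 528 and 617 CPM in control cells (log2 -0.15 ± 0.18, edgeR adjusted p = 0.808). GRN, the progranulin gene, had 135 and 125 CPM in resistant and 160 and 129 CPM in control cells (log2 -0.16 ± 0.18, edgeR adjusted p = 0.788).

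Wnt receptors and regulators, a list of LRP5 and LRP6 partners that also holds Wnt targets, had 1 call among 32 tested genes in edgeR. Over all tested genes edgeR called 0.577% higher and 0.513% lower. TNFRSF19, a TNF receptor family gene listed as a Wnt target, rose to 42.8 and 47.1 CPM in resistant cells, against 15.7 and 18.2 CPM in control cells (log2 1.41 ± 0.18 SE, edgeR adjusted p = 0.0239). Its log2 fold change lay between 1.30 and 1.51 with 1 library left out. The call was lost when either resistant library was removed, but few genes of the whole table passed in those fits. None of the 32 was called lower in edgeR, 11 had an unadjusted p under 0.05, where 13.5% of all tested genes did, and DESeq2 called 4 higher (TNFRSF19, NKD2, SFRP1 and KREMEN1) and 1 lower (FZD1; median 0.21). Over the whole table DESeq2 called 627 genes (3.04%) higher and 705 (3.42%) lower. Without control replicate 2, edgeR called 6 of the list higher and 4 lower, against 4.36% and 3.96% of all genes. The Wnt antagonist genes NKD2 (19.5 and 31.6 CPM in resistant, 8.61 and 14.6 CPM in control cells, edgeR adjusted p = 0.162) and NKD1 (5.66 and 4.85 CPM in resistant, 3.19 and 2.29 CPM in control cells, edgeR adjusted p = 0.199) did not pass.

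**Figure D5:**
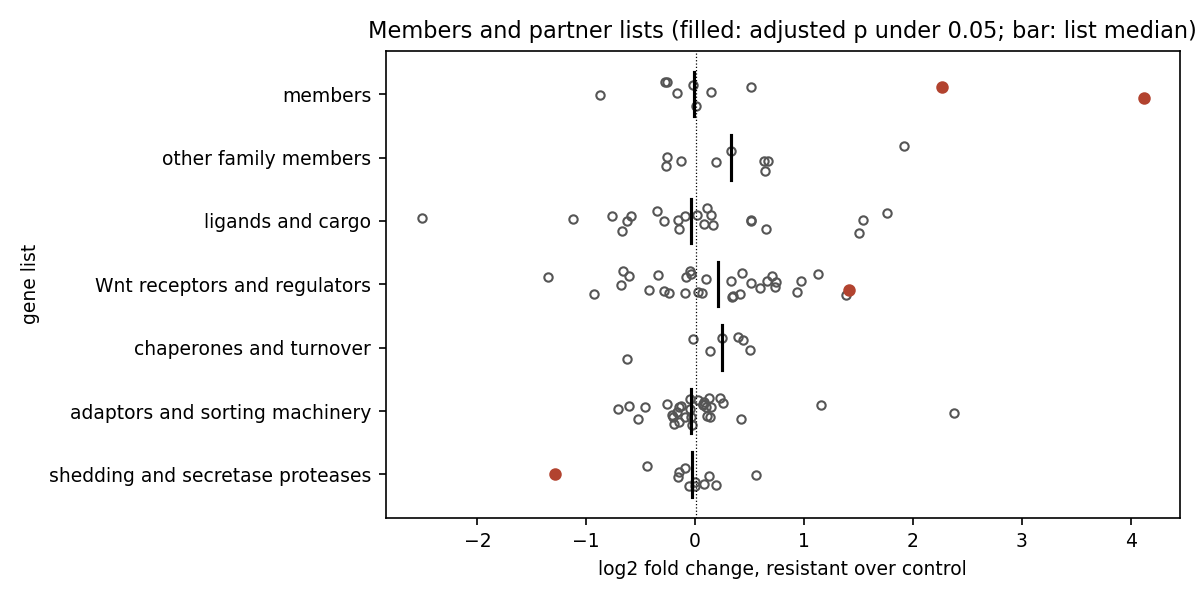
Log2 fold change, resistant over control, of each tested gene in the members and in 6 partner lists, with a bar at each list's median and a dotted line at the median of all tested genes (0.01), filled red where the adjusted p is under 0.05. The list medians lie between -0.04 and 0.33, and the filled points outside the members are TNFRSF19 (1.41) and MMP14 (-1.29).

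Chaperones and turnover factors held no call among 7 genes in edgeR, and 0 with DESeq2, and 1 had an unadjusted p under 0.05 (median 0.25, against 13.5% and 0.01 over all genes). LRPAP1, the folding chaperone of the family, had 85.3 and 83.0 CPM in resistant and 86.4 and 83.7 CPM in control cells (log2 -0.02 ± 0.16, edgeR adjusted p = 0.980). MESD, a chaperone for LRP5 and LRP6, had 65.4 and 63.8 CPM in resistant cells, against 42.9 and 48.7 CPM in control cells, without overlap (log2 0.50 ± 0.16, edgeR adjusted p = 0.234). HSP90B1, an endoplasmic reticulum chaperone gene, had 733 and 406 CPM in resistant and 444 and 394 CPM in control cells, with overlap (edgeR adjusted p = 0.564). MYLIP, a ubiquitin ligase that targets receptors of the family for degradation, had 34.6 and 46.6 CPM in resistant and 38.5 and 23.7 CPM in control cells, with overlap (edgeR adjusted p = 0.608).

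Adaptors and sorting machinery gave 0 calls among 31 tested genes in edgeR, and 5 had an unadjusted p under 0.05, a share near the 13.5% of all tested genes (median -0.04). DESeq2 called 2 higher (HSPA12A and DAB1) and 0 lower, against 3.04% and 3.42% of all genes. Without control replicate 2 the edgeR log2 fold change was 1.07 for HSPA12A and -0.90 for DAB2. HSPA12A, a distant HSP70 relative that binds the SORL1 tail, had 20.8 and 14.5 CPM in resistant cells, against 8.38 and 7.38 CPM in control cells (log2 1.16 ± 0.24, edgeR adjusted p = 0.0778). DAB2, an endocytic adaptor, had 25.7 and 31.7 CPM in resistant cells, against 53.1 and 41.0 CPM in control cells (log2 -0.71 ± 0.21, edgeR adjusted p = 0.166).

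Of 12 genes for proteases that shed or cut these receptors, secretase subunits included, MMP14 passed, where edgeR called 0.513% of all tested genes lower. This membrane-bound matrix metalloprotease, which can cleave LRP1, fell to 85.3 and 68.0 CPM in resistant cells, against 161 and 215 CPM in control cells (log2 -1.29 ± 0.21 SE, edgeR adjusted p = 0.0415). Its log2 fold change lay between -1.49 and -1.08 with 1 library left out. The call was lost when either resistant library was removed, but few genes of the whole table passed in those fits. The γ-secretase subunit gene NCSTN had 155 and 143 CPM in resistant and 91.8 and 110 CPM in control cells (log2 0.56 ± 0.17, edgeR adjusted p = 0.195), and BACE1 had 47.9 and 36.8 CPM in resistant and 54.0 and 60.5 CPM in control cells (edgeR adjusted p = 0.381). The list median was -0.03, with 2 of 12 genes at an unadjusted p under 0.05, against 13.5% of all tested genes. DESeq2 called 1 lower, MMP14, against 3.42% of all genes.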

How the data were processed

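The authors deposited raw counts per gene for 4 libraries. The counter was featureCounts 2.0.0 with GENCODE release 42, run on duplicate-marked alignments and left at its defaults, per the file headers. Those defaults ignore strand, count mates singly, drop reads of several genes or places and keep duplicates. The submitters' processing notes name STAR, DESeq2 and GRCh38. The authors' deposited table of log2 fold changes has no header and names no comparison, and its log base was inferred from the scale of its values.

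Symbols matched 62625 of 62649 identifiers, 707 of them without the version. Genes passing edgeR's filterByExpr (24961) were TMM-scaled before edgeR's quasi-likelihood test with group as the sole term, two-sided, with Benjamini-Hochberg adjustment over all genes and a threshold of 0.05 (R 4.3.3, edgeR 4.0.16, limma 3.58.1, DESeq2 1.42.0). SE is the absolute log2 fold change over √F. RPKM is CPM per kilobase of exon length in the count files. The fit was tested on simulated counts that had the same dispersion for every gene, lower than the common dispersion of these libraries (0.065). That test therefore does not show how the fit performs on these data.

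Members, gene lists and tests were chosen with earlier results of these data known. Besides the members and 7 fixed genes, the text names list genes past the threshold, and where fewer than 2 passed the 2 with the largest fold change in either direction among genes averaging 5 CPM or more in the higher group, whichever group that was. It also names 3 genes most like SORL1 and LRP3 (0.1 CPM added before log2) and their nearest neighbours. SORCS genes and genes named as called in alternatives only were named after their values were seen. Some genes of the lists are not reported here. Replicates were distinct libraries, with a chi-square over counts of 63.1 (resistant) and 118 (control) per degree of freedom. Mates counted singly and the all-even counts of control replicate 1 can inflate these values, so they do not compare the groups. Alternatives were 2 other scalings, DESeq2, no filter, a replicate block, control replicate 1 halved and each library left out.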

Additional observations from a re-analysis of the deposited data

How the results depend on the processing

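SORL1 and LRP3 were picked on these same libraries, so their calls under alternatives support nothing; 0 members were called higher without resistant replicate 1 (range 0 to 2 with 1 library left out). Members called lower were 0 with all libraries and 1, SORT1, with DESeq2 (1), without a filter on low counts (1) and without control replicate 2 (range 0 to 1 with 1 library left out). Over the whole table, 144 genes were called higher and 128 lower. DESeq2 called 627 higher and 705 lower, and the fit without a filter 905 and 961. With 1 library left out the counts ranged from 0 to 1089 higher and from 2 to 988 lower, lowest without resistant replicate 1 and highest without control replicate 2. The cause was not tested.

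With the replicate number as a block, 33 genes were called higher and 31 lower. TNFRSF19 (edgeR adjusted p = 0.0559) and MMP14 (0.0945) then missed the threshold and BDNF passed it (log2 1.83, adjusted p = 0.0472). Same-numbered libraries deviated from their group means with a correlation of -0.113 across genes, and the crossed pairing, added after seeing the data, gave 334 higher and 373 lower. The labels do not say that a number marks a shared batch.

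Direction changed only near 0 for members. LRP1 had log2 -0.039 without control replicate 1 (range -0.039 to 0.049), LRP6 -0.014 without resistant replicate 1 (-0.014 to 0.30), and LRP12 0.0015 with library totals and -0.11 to 0.062 with 1 library left out. Among other genes, LRPAP1 had 0.0079 with library totals, 0.0041 without a filter and -0.045 to 0.0065 with 1 library left out. Those ranges were -0.31 to 0.0086 for GRN, -0.047 to 0.81 for HSP90B1, -0.20 to 0.13 for MIR100HG and -0.35 to 0.56 for ENSG00000289378. Of 110 member values under alternatives, 100 kept their direction and side of the threshold. That tally includes the crossed pairing and the values of SORL1 and LRP3, which were picked on these libraries. It is a description and no support for them. SORL1 in control cells rests on 28 and 55 counts, with mates counted singly.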

Other observations

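LDLRAD4, an LDL receptor type A domain gene that dampens TGF-beta signalling, had 4.74 and 3.02 CPM in resistant cells, against 0.894 and 1.15 CPM in control cells (log2 1.92 ± 0.36 SE, edgeR adjusted p = 0.0569); DESeq2 and edgeR without control replicate 2 called it higher. LDLRAD3 had 77.2 and 85.2 CPM in resistant cells, against 45.6 and 59.6 CPM in control cells (log2 0.63 ± 0.19, edgeR adjusted p = 0.184). Neither passed in edgeR with all libraries, and LDLRAD4 was named after its values were seen.

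DAB1, the adaptor that passes the reelin signal on from LRP8 and VLDLR, had 0.703 and 0.992 CPM in resistant cells, against 0.112 and 0.208 CPM in control cells (log2 2.38 ± 0.53, edgeR adjusted p = 0.0910). RELN itself was under 1 CPM in all 4 libraries. DAB1 and RELN were named after their values were seen.

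The authors' deposited table of log2 fold changes lists 3 of the 10 members among 1533 genes. It gives 5.31 for SORL1, 2.36 for LRP3 and -0.86 for SORT1 in the authors' deposited table, which names no comparison. The edgeR values, resistant over control, were 4.12, 2.27 and -0.87.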
